A study of Homo sapiens with 8 samples.

Results

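SCML2 and 9 further Polycomb group genes were followed through RNA-seq of the established human glioblastoma lines U87 and T98, in which LKB1, a kinase that STK11 encodes, was silenced with siRNA. The members were the rows of the deposited table whose gene symbol was SCML2, EZH1, EZH2, EED, SUZ12, BMI1, RNF2, PCGF2, CBX2 or CBX8, which gave 10 genes of 18787 in the table. They were chosen by their log2 differences in these same libraries, under LKB1 siRNA in each line and between the controls of the lines. Their differences are therefore given as a description, and no p-value is printed for a member. The 4 groups were T98 with control siRNA, T98 with LKB1 siRNA, U87 with control siRNA and U87 with LKB1 siRNA, each with 2 libraries. All cells were grown in DMEM with serum and transfected with Lipofectamine RNAiMAX, and RNA was taken at 72 h. The labels speak of duplicates, which may be repeats of 1 transfection. If they were technical, every p-value measures only the spread between these samples. Knockdown was transient, and which siRNA sequences were used is not stated in the labels.

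Polycomb proteins keep developmental genes silent in 2 main complexes. Polycomb repressive complex 2 (PRC2) places the repressive methyl mark on lysine of histone H3. Its core is a methyltransferase, EZH2 or its relative EZH1, with SUZ12 and EED, and EED reads the mark. Polycomb repressive complex 1 (PRC1) ubiquitinates histone H2A through RNF2 (RING1B) or RING1, paired with a PCGF protein such as BMI1 (PCGF4) or PCGF2 (MEL18). In canonical PRC1 a CBX protein such as CBX2 or CBX8 binds the methylated histone. SCML2 is a Sex comb on midleg family protein that associates with PRC1. EZH2 and BMI1 are much studied in glioblastoma, where they are linked to proliferation and self-renewal.

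Promoter sequence was found in the RefSeq table (GRCh38.p14) for 8 of the 10 members. It was not found for CBX2 and CBX8. The sequences of 3 are printed because they belong to the member with the largest difference in both lines (SCML2), the PRC2 gene with the largest difference (EZH2) and the one member that was higher in every pair of libraries (PCGF2). Each is the 250 bases before the annotated start, 5′ to 3′ on the gene's strand, with CG dinucleotides in capitals. The annotated start need not be that of the transcript counted.

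SCML2 (chrX:18354689-18354938, minus strand): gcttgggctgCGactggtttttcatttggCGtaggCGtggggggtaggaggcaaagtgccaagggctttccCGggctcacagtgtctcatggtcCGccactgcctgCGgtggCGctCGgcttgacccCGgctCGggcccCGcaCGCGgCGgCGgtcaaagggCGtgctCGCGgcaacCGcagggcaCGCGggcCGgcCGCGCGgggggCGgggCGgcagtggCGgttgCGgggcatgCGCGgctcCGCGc

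EZH2 (chr7:148884292-148884541, minus strand): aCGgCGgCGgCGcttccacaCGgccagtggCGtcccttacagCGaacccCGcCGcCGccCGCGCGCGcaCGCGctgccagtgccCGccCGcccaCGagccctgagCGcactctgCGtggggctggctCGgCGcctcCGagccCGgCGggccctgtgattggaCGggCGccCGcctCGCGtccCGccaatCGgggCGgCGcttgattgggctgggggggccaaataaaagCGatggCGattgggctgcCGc

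PCGF2 (chr17:38746629-38746878, minus strand): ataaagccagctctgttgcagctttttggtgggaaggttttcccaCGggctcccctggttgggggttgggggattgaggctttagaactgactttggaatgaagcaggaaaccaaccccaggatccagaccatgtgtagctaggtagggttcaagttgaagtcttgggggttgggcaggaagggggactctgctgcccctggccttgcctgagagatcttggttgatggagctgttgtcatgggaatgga

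The SCML2 sequence held 33 CG dinucleotides and the EZH2 sequence 38, while the PCGF2 sequence held 1. The median over 13538 promoters of genes in the table was 18. The PCGF2 entry was also the poorest in CG among the 8 matched members, with EED next at 11. The 3 E2F-type motifs GCGGGAA, TTTGGCGC and TTTCGCGC were searched on both strands. They matched in 2 of the 8 members, SUZ12 and RNF2 (25%), in both as GCGGGAA on the minus strand, against 8.58% of the 13538 promoters. A match describes the letters of the window only.

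The deposited table held 1 normalised value per gene and library, and the totals of these values ran from 30719457 to 33436192. Genes with a value of 10 or more in 2 or more libraries were tested. These were 14282 genes, all 10 members among them. The column names gave a sequencing lane: each group had a library on lane 2, with its duplicate on lane 4 in T98 and lane 5 in U87. Libraries are named here by line, siRNA and lane. STK11 itself was at 17.0% and 28.8% of its control on lanes 2 and 4 of T98, and at 14.8% and 18.8% on lanes 2 and 5 of U87. Among 10 glial and neural markers, VIM and CD44 were high in every library. The astroglial glutamate transporter gene SLC1A3 lay between 260.1 and 1541.2. NES, the neural progenitor filament gene, lay between 16.2 and 123.1 in T98 and between 1360.9 and 2073.2 in U87. GFAP, the defining astrocyte filament gene, was at 8.6 or less in T98 and between 21.6 and 50.7 in U87. SOX2 was at 2.9 or less, S100B at 3.5 or less and AQP4 at 0.96 or less, and 3 to 5 of the 10 markers were below 10 in each library. The 10 markers of blood, endothelial and epithelial cells summed to between 276.7 and 468.7 per library, and KRT8, a keratin, made up between 122.2 and 390.9 of this.

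SCML2 had the largest difference of the members under LKB1 siRNA in both lines. SCML2 (NM_006089, chrX:18257433-18372844 on hg19, minus strand) was at 304.8 on lane 2 and 223.0 on lane 4 in T98 with control siRNA. With LKB1 siRNA in T98 it was at 18.6 and 72.8. In U87 it was at 533.1 on lane 2 and 483.0 on lane 5 with control siRNA, and at 75.6 and 77.1 with LKB1 siRNA. All 4 LKB1 siRNA libraries were below all 4 control libraries. In T98, 6.11% of the control value remained on lane 2 and 32.7% on lane 4, and in U87 14.2% on lane 2 and 16.0% on lane 5.

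On the log2(value + 1) scale, used for all differences here, SCML2 differed by −2.78 (SE 0.59, n = 2 libraries against 2) in T98 and by −2.72 (SE 0.59) in U87. The T98 value is a mean over lanes that were far apart, −3.96 on lane 2 and −1.60 on lane 4. It was −1.83 without the T98 LKB1 siRNA library of lane 2 and −3.74 without that of lane 4. The U87 lanes were close, at −2.80 and −2.63. The difference between the effects was −0.06 (SE 0.83), so at this replication the lines could be neither told apart nor called alike for SCML2.

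**Figure D1:**
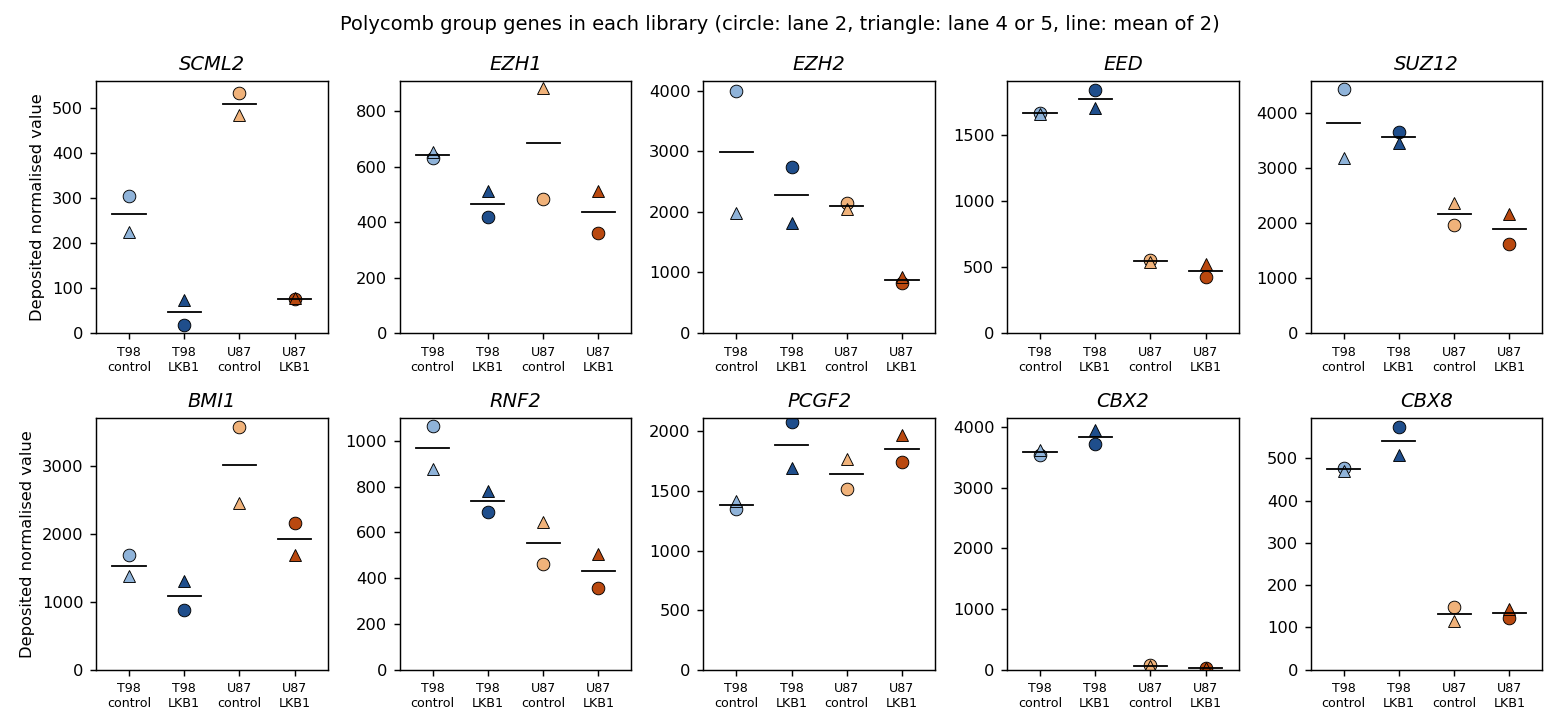
Deposited normalised value (vertical axis, from 0) of each of the 10 genes in every library, by group (horizontal axis). Circles are lane 2, triangles lane 4 (T98) or lane 5 (U87), and lines the mean of 2 libraries. SCML2 lies between 18.6 and 77.1 in all LKB1 siRNA libraries, and CBX2 lies at 3538.0 or more in T98 and at 72.8 or less in U87.

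Of the PRC2 genes, the methyltransferase EZH2 was lower with LKB1 siRNA in U87, where its 2 control libraries were at 2153.7 and 2052.5 and its 2 LKB1 siRNA libraries at 822.0 and 929.4 (lanes 2 and 5). These groups did not overlap, and EZH2 kept 38.2% and 45.3% of the control value. In T98 EZH2 (NM_004456, chr7:148504464-148581441, minus strand) was at 3999.4 and 1988.8 with control siRNA and at 2731.8 and 1818.1 with LKB1 siRNA (lanes 2 and 4). The T98 groups overlapped, because the lanes differed by more than the siRNAs did. The EZH2 difference was −1.27 (SE 0.34) in U87 and −0.34 (SE 0.34) in T98. Without the T98 control library of lane 2, the T98 difference turned to 0.16. The difference between the lines' effects was 0.93 (SE 0.49) and did not pass the threshold in either fit described below.

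EZH1, the second PRC2 methyltransferase, was lower in all 4 lane pairs by smaller amounts. EZH1 (NM_001991, chr17:40852293-40897071, minus strand) was at 632.1 and 653.2 in T98 controls and at 417.3 and 512.1 with LKB1 siRNA, which did not overlap. In U87 it was at 484.7 and 883.1 in controls and at 359.6 and 511.0 with LKB1 siRNA, which overlapped. The differences were −0.47 (SE 0.34) in T98 and −0.61 (SE 0.34) in U87.

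The PRC2 core subunits EED and SUZ12 had differences of 0.21 or less in size in both lines. EED (NM_152991, chr11:85955806-85989785, plus strand) was at 1664.0 and 1657.6 in T98 controls and at 1835.0 and 1699.0 with LKB1 siRNA. In U87 EED was at 552.2 and 533.6 in controls and at 420.5 and 522.0 with LKB1 siRNA. The EED groups did not overlap in either line, with T98 on the higher side (0.09, SE 0.20) and U87 on the lower (−0.21, SE 0.20). SUZ12 (NM_015355, chr17:30264044-30328057, plus strand) was at 4437.6 and 3185.1 in T98 controls and 3650.6 and 3461.3 with LKB1 siRNA. In U87 it was at 1954.2 and 2365.6 in controls and at 1612.2 and 2156.3 with LKB1 siRNA. The SUZ12 groups overlapped in both lines, with differences of −0.08 (SE 0.24) and −0.21 (SE 0.24).

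Of the PRC1 genes, RNF2 and BMI1, which form a ligase pair, were lower in every lane pair, and PCGF2, an alternative partner of RNF2, was higher in every lane pair. RNF2 (NM_007212, chr1:185014551-185071740, plus strand) was at 1064.9 and 875.3 in T98 controls and at 688.5 and 781.1 with LKB1 siRNA. In U87 RNF2 was at 460.4 and 646.3 in controls and at 355.7 and 506.0 with LKB1 siRNA. The RNF2 groups did not overlap in T98 (−0.40, SE 0.28) and overlapped in U87 (−0.36, SE 0.28).

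BMI1 (NM_005180, chr10:22610139-22620414, plus strand) was at 1689.5 and 1369.9 in T98 controls and at 876.7 and 1296.9 with LKB1 siRNA. In U87 BMI1 was at 3567.3 and 2450.5 in controls and at 2156.4 and 1688.3 with LKB1 siRNA. The BMI1 groups did not overlap in either line. The difference was −0.51 (SE 0.28) in T98, from −0.95 on lane 2 and −0.08 on lane 4, and −0.63 (SE 0.28) in U87. In the GENCODE annotation, BMI1 overlaps the read-through gene COMMD3-BMI1 on its own strand, so how reads were split between them is uncertain.

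PCGF2 (NM_007144, chr17:36890150-36904558, minus strand) was at 1350.6 and 1414.6 in T98 controls and at 2078.8 and 1690.6 with LKB1 siRNA, which did not overlap. In U87 it was at 1515.0 and 1765.1 in controls and at 1742.0 and 1967.2 with LKB1 siRNA, which overlapped. The PCGF2 difference was 0.44 (SE 0.19) in T98 and 0.18 (SE 0.19) in U87. PCGF2 overlaps CISD3 on the opposite strand, and the library kit does not mark strand, so reads of the overlap cannot be told apart.

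Per kilobase of transcript, BMI1 took a smaller and PCGF2 a larger share of the PCGF transcripts with LKB1 siRNA in both lines. BMI1 made up 24.7% and 21.3% of the summed level of PCGF1, PCGF2, PCGF3, BMI1, PCGF5 and PCGF6 in T98 controls, and 12.5% and 18.8% with LKB1 siRNA. In U87 the BMI1 share was 38.3% and 27.4% in controls and 26.8% and 20.1% with LKB1 siRNA. The PCGF2 share was a mean of 27.5% (SD 2.1, n = 2) in T98 controls against 35.5% (SD 4.7) with LKB1 siRNA, and 23.7% (SD 3.2) in U87 controls against 29.7% (SD 1.6). The shares did not overlap between the siRNAs in either line for BMI1 or for PCGF2. RNF2 was the smaller part of the pair of RNF2 and its paralogue RING1 in every library. It made up 46.8% and 34.8% of the pair in T98 controls and 24.0% and 28.3% with LKB1 siRNA, and 26.6% and 32.9% in U87 controls and 19.6% and 19.7% with LKB1 siRNA. These shares describe composition and were not tested.

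The chromodomain genes CBX2 and CBX8 stood out for the cell line more than for the siRNA. CBX2 (NM_005189, chr17:77751977-77761449, plus strand) was at 3538.0 and 3621.9 in T98 controls and at 3722.4 and 3952.9 with LKB1 siRNA. In U87 CBX2 was at 72.8 and 58.2 in controls and at 30.2 and 21.0 with LKB1 siRNA. Within U87 the groups did not overlap and 41.5% and 36.2% of the control remained, a difference of −1.33 (SE 0.27). In T98 the difference was 0.10 (SE 0.27). CBX8 (NM_020649, chr17:77768176-77770915, minus strand) was at 477.6 and 469.9 in T98 controls and at 573.2 and 507.3 with LKB1 siRNA (0.19, SE 0.28). In U87 CBX8 was at 147.8 and 114.5 in controls and at 123.5 and 144.1 with LKB1 siRNA (0.04, SE 0.28), where the groups overlapped.

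**Figure D2:**
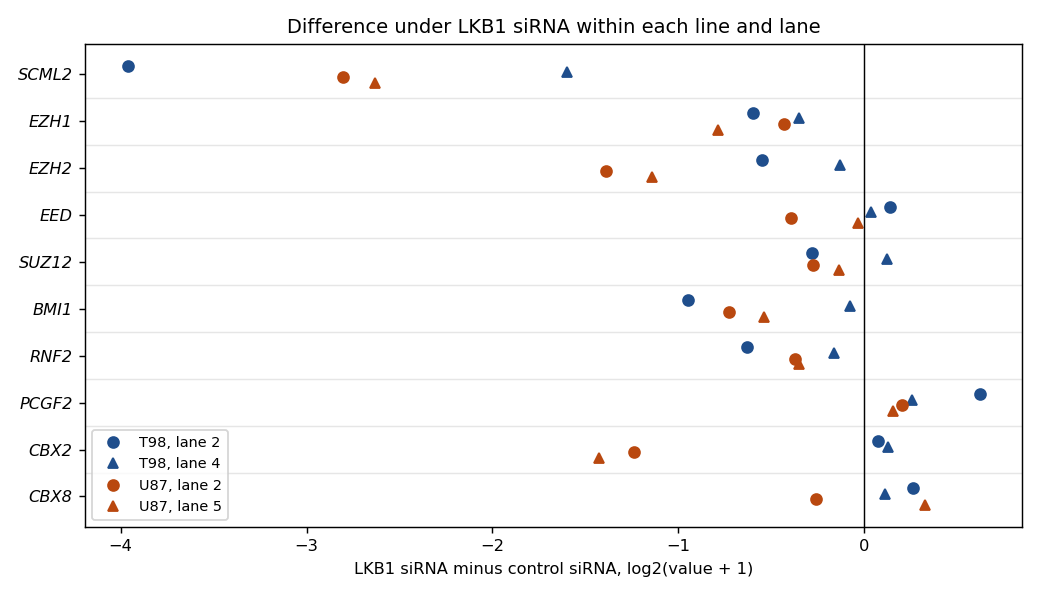
Difference between LKB1 siRNA and control siRNA on the log2(value + 1) scale (horizontal axis) for each gene (vertical axis) in each of the 4 lane pairs. Blue is T98 (lanes 2 and 4) and orange U87 (lanes 2 and 5). SCML2 lies between −3.96 and −1.60, and CBX2 lies near 0 in T98 and at −1.24 and −1.42 in U87.

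Read over the 4 lane pairs, 5 members (SCML2, EZH1, EZH2, BMI1 and RNF2) were lower in each, where 21.3% of all tested genes were. One member, PCGF2, was higher in each, where 21.7% were. EED and CBX2 were higher in both T98 pairs and lower in both U87 pairs, a pattern that 6.46% of tested genes shared. The median member difference was −0.21 in T98 and −0.49 in U87, against 0.02 and −0.00 over all tested genes.

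In T98 the LKB1 siRNA and control groups did not overlap for 4 members that were higher (EED, PCGF2, CBX2 and CBX8) and 4 that were lower (SCML2, EZH1, BMI1 and RNF2), which left EZH2 and SUZ12 overlapping. Over all tested genes, 20.5% were higher and 20.5% lower without overlap. In U87 the groups did not overlap for 5 members, all lower (SCML2, EZH2, EED, BMI1 and CBX2), where 20.2% of tested genes were, and for 0 that were higher (17.6%). The rule that chose the members used these contrasts, so nothing is read from the counts.

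The members were also read in 2 fits, both made with limma-trend across all tested genes, with Benjamini-Hochberg adjustment and a threshold of 0.05. Without a lane term, no member passed in T98 or in U87. STK11 itself did not pass in T98 (−2.17, SE 0.28, limma-trend adjusted p = 0.0824) and passed in U87 (−2.58, SE 0.28, adjusted p = 0.0466). A gene that does not pass in this fit is thus not shown to be unchanged. Over all tested genes 0.028% passed in T98 and 0.056% in U87. An unadjusted p under 0.05 was found for 1 member in T98 (10.5% of tested genes) and for 3 in U87 (8.88%). In the fit with a lane term within each line, SCML2 passed as lower in T98, where 7.33% of tested genes did (15.8% in either direction). SCML2, EZH2 and CBX2 passed as lower in U87, where 5.91% did (11.2% in either direction). These calls use the same values that chose the members, so nothing is read from them. The lane-term calls also rest on few degrees of freedom. The number rose to 5 in T98 without either T98 library of lane 4, and to 5 in U87 without any 1 of the T98 libraries. SCML2 did not pass in T98 without the T98 control library of lane 2 or any 1 of the U87 libraries, and no member passed in U87 without any 1 of the U87 libraries.

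The proliferation markers moved beside EZH2 in U87. Of 16 such markers, including TOP2A, a topoisomerase of dividing cells, 2 fell in U87 without a lane term (12.5%, against 0.056% of all genes called) and 15 with one (93.8%, against 5.91% of all genes lower), with a median of −1.35. Their summed value was 76461 and 84862 in the U87 controls and 30005 and 36316 with LKB1 siRNA. In T98 it lay between 102654 and 136819, and 1 of the 16 fell with a lane term. Leaving out any 1 of the 8 libraries, or TMM rescaling, lost the 2 calls, and leaving out any 1 of the U87 libraries lost the 15. In the test of the difference between the lines' effects, 0 of the 16 passed without a lane term and 7 with one (43.8%, against 0.476% of all genes), all lower in U87 relative to T98. Those 7 were lost without either T98 library of lane 2 or any 1 of the U87 libraries, and the number was 11 and 12 without the T98 control and LKB1 siRNA libraries of lane 4. The part of this in the EZH2 difference was not tested. In such bulk samples, fewer cells of a type and less RNA per cell cannot be told apart.

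With control siRNA, T98 and U87 differed most in CBX2. The CBX2 difference of 5.76 (SE 0.27) came from values of 3538.0 or more in the T98 control libraries and of 72.8 or less in the U87 control libraries. CBX8 was 1.86 (SE 0.28) higher in T98, EED 1.61 (SE 0.20) and SUZ12 0.81 (SE 0.24), while BMI1 was 0.96 lower (−0.96, SE 0.28). These 5 members passed without a lane term, 4 higher and 1 lower, where 18.3% of tested genes were higher and 19.5% lower (37.7% in all). RNF2 (0.82, SE 0.28), EZH2 (0.42, SE 0.34), PCGF2 (−0.24, SE 0.19), EZH1 (−0.03, SE 0.34) and SCML2 (−0.96, SE 0.59) did not pass. The rule that chose the members used this contrast too, so nothing is read from these calls.

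The control groups did not overlap for 5 members that were higher in T98 (the 4 above and RNF2; 35.7% of tested genes) and 3 that were lower (SCML2, BMI1 and PCGF2; 35.9%). The EZH2 difference rested on the T98 control library of lane 2, without which it was −0.08. The number of members that passed fell from 5 to 3 without the T98 control of lane 2 and to 3 without the U87 control of lane 2. The lane-term fit sets the lines against each other at lane 2, with each line's lane effect estimated from its 4 libraries. In it 6 members passed as higher in T98 (30.7% of tested genes) and 1 as lower (32.6%). The additions were RNF2 at 1.10 (SE 0.20) and EZH2 at 0.85 (SE 0.18). Nothing is read from these counts of members either, for the same reason.

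Per kilobase of transcript, the order of the members differed between the lines. In T98 controls it ran from EZH2 (mean 979.4 per kb), SUZ12 (848.3), CBX2 (715.8) and EED (684.0) through PCGF2, BMI1, CBX8 and RNF2 to EZH1 (137.7) and SCML2 (62.6). In U87 controls it began with BMI1 (874.7), EZH2 (688.0), PCGF2 (627.2) and SUZ12 (480.7) and ended with SCML2 (120.6), CBX8 (84.6) and CBX2 (13.1). In T98 the spread of EZH2 over its 2 libraries covered SUZ12, CBX2 and EED, so these neighbours were not separated. In U87 the libraries of BMI1 and EZH2 were separated by less than those of BMI1 were from each other.

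**Figure D3:**
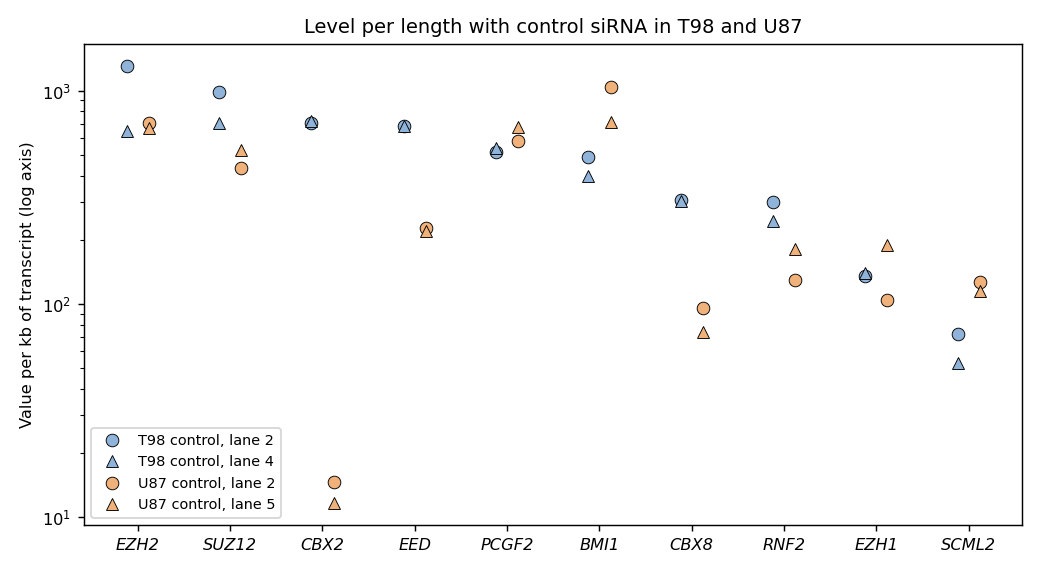
Value per kb of deposited transcript length (vertical log axis) for each gene in the 4 control siRNA libraries, in the order of the T98 mean. CBX2 has the third highest mean in T98 and the lowest of the 10 in U87, where its mean is 13.1 per kb.

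The mix of the chromodomain genes CBX2, CBX6, CBX7 and CBX8 differed between the lines. Per kb, CBX2 made up 31.7% and 34.3% of the summed level of these 4 genes in T98 controls, and 1.28% and 0.71% in U87 controls. CBX6 took the larger part in U87 controls, at 76.7% and 73.8%, against 50.2% and 44.1% in T98. CBX2 and CBX8 lie close together on chromosome 17, with 6726 bases between them, and both were higher in T98 controls, by unequal amounts. In all, 5 of the 10 members lie on chromosome 17, which holds 5.88% of the genes in the table.

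No member passed the test of the difference between the effects of LKB1 siRNA in the lines, T98 minus U87. Without a lane term 0 of 14282 genes passed (0%), while 367 (2.57%) had an unadjusted p under 0.05, 1 member among them. The lane-term fit passed 0.476% of tested genes and again no member. CBX2 had the largest member difference at 1.43 (SE 0.38 without and 0.22 with a lane term). The rule that chose the members used the effects in each line, so nothing is read from this test for them. The effects of LKB1 siRNA on CBX2 and EZH2 are neither shown to differ between the lines nor shown to be alike.

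Another 40 Polycomb genes were listed from knowledge of the complexes, counting the H3K27 demethylases KDM6A and KDM6B, which are not subunits of them. Genes such as MBTD1 and L3MBTL1 were counted for their MBT repeats, which SCML2 carries too, and not as subunits. All 40 were in the table and 39 were tested. None passed without a lane term under LKB1 siRNA in either line, with 5 in T98 and 8 in U87 at an unadjusted p under 0.05. The lane-term fit had 1 that rose and 4 that fell in T98 (12.8%, against 15.8% of all genes), and 1 that rose and 7 that fell in U87 (20.5%, against 11.2%). Their median was −0.10 in T98 and −0.14 in U87. Without the T98 control or LKB1 siRNA library of lane 4 the T98 calls numbered 10 and 11. The calls in T98 were all lost without the T98 control or the T98 LKB1 siRNA library of lane 2, or without any 1 of the U87 libraries. Those in U87 were all lost without any 1 of the U87 libraries.

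SCML1, the X-linked relative of SCML2 with 484327 bases between them, fell in both lines with a lane term. SCML1 was at 3076.4 and 2819.6 in T98 controls and at 1404.3 and 1858.3 with LKB1 siRNA. In U87 it was at 1462.3 and 1804.3 in controls and at 422.2 and 764.5 with LKB1 siRNA. The groups did not overlap in either line. SCML1 fell by 0.87 in T98 (SE 0.18, limma-trend adjusted p = 0.0238) and by 1.51 in U87 (SE 0.18, adjusted p = 0.0038). Per kb SCMH1, a further family member, made up 29.9% and 33.8% of SCMH1, SCML1, SCML2 and SCML4 in T98 controls and 45.2% and 42.9% with LKB1 siRNA. SCMH1 itself was not higher, with differences of −0.26 and −0.08 on lanes 2 and 4 of T98. On lanes 2 and 5 of U87 they were −0.21 and −0.21, and the SCMH1 groups overlapped in both lines. The SCML2 share was 4.5% and 3.4% in T98 controls, 0.5% and 1.5% with LKB1 siRNA, 13.1% and 11.6% in U87 controls and 3.9% and 3.6% with LKB1 siRNA.

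PHF1, a PRC2 accessory protein of the Polycomb-like family, rose in both lines with a lane term. PHF1 was at 688.7 and 892.5 in T98 controls and at 1268.6 and 1426.3 with LKB1 siRNA, and at 683.1 and 798.1 in U87 controls and at 1140.2 and 1298.8 with LKB1 siRNA. Its differences were 0.78 (SE 0.13, limma-trend adjusted p = 0.0135) in T98 and 0.72 (SE 0.13, adjusted p = 0.0155) in U87. Its family member PHF19 fell in U87 by 0.97 (SE 0.13, limma-trend adjusted p = 0.00485), from 2199.1 and 1708.8 to 1182.0 and 824.1. In T98, PHF19 was at 2217.1 and 1431.6 in controls and 2063.8 and 1142.2 with LKB1 siRNA, a difference of −0.21 that did not pass.

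YAF2, which occupies the RYBP position in non-canonical PRC1, fell in both lines with a lane term. It was at 316.6 and 338.0 in T98 controls and at 189.2 and 190.8 with LKB1 siRNA, and at 482.5 and 425.7 in U87 controls and 180.4 and 203.4 with LKB1 siRNA. YAF2 fell by 0.78 in T98 (SE 0.18, limma-trend adjusted p = 0.0295) and by 1.24 in U87 (SE 0.18, adjusted p = 0.00654). MBTD1, which like SCML2 carries MBT repeats, fell by 0.71 in T98 (SE 0.16, limma-trend adjusted p = 0.0297), from 900.8 and 1064.3 to 491.4 and 731.8. In U87 MBTD1 was at 353.7 and 496.5 in controls and at 228.2 and 274.6 with LKB1 siRNA (−0.74, SE 0.30 without a lane term). With a lane term this fall in U87 passed as well.

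**Figure D4:**
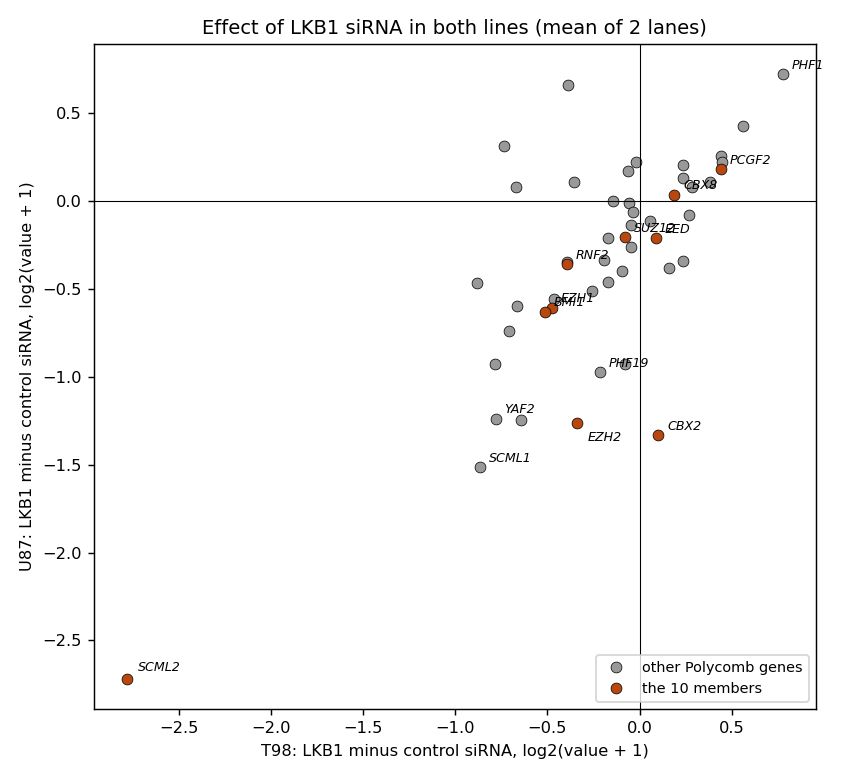
Difference under LKB1 siRNA (log2(value + 1), mean of 2 lanes) in T98 (horizontal axis) and U87 (vertical axis) for the 10 members (orange) and the 39 other tested Polycomb genes (grey). SCML2 lies at the lower left (−2.78 and −2.72), and EZH2 and CBX2 lie at −1.27 and −1.33 in U87 and at −0.34 and 0.10 in T98.

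With control siRNA, 13 of the 39 other Polycomb genes differed between the lines without a lane term (33.3%, near the 37.7% of all genes), 8 higher and 5 lower in T98. MTF2, a Polycomb-like accessory protein of PRC2, was at 2029.6 and 1817.1 in T98 controls and at 240.8 and 290.2 in U87 controls, a difference of 2.86 (SE 0.21, limma-trend adjusted p = 0.000121). RYBP, of non-canonical PRC1, was 1.73 higher in T98 (SE 0.35, adjusted p = 0.00781) and the histone-binding PRC2 subunit RBBP7 0.80 higher (SE 0.17, adjusted p = 0.00929). PHC2, a Polyhomeotic protein of canonical PRC1, differed by −0.97 (SE 0.18, limma-trend adjusted p = 0.0047) and the H3K27 demethylase KDM6A by −1.14 (SE 0.24, adjusted p = 0.00933).

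The MBT-repeat gene L3MBTL4 was at 2.2 and 3.8 in T98 controls and 25.5 and 100.4 in U87 controls. It passed the filter through U87 alone, which favours a difference between the lines. Leaving out such genes, 12 of the 37 that passed the filter in both lines differed (32.4%, against 34.7% of all such genes). The count of 13 fell to 3 without the T98 control of lane 2, to 6 without the U87 control of lane 2 and to 8 without the U87 control of lane 5. The lane-term count was 20 (51.3%), and its genes with the smallest adjusted p included the MBT-repeat genes L3MBTL2 (1.05, SE 0.14, limma-trend adjusted p = 0.000522) and L3MBTL1 (−2.63, SE 0.29, adjusted p = 0.000175).

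None of the 39 passed the test of the difference between the effects in either fit, with 0 at an unadjusted p under 0.05 without a lane term and 6 with one. The ends of their range were PHF19 (0.76, SE 0.51) and CBX7 (0.85, SE 0.85) on the positive side and ASXL2 (−1.05, SE 0.50) and SFMBT2 (−1.05, SE 0.69) on the negative side.

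A list of 50 developmental regulators was read as well, transcription factor genes of the kind Polycomb keeps silent in many cell types. Of these 49 were in the table and 37 were tested. A gene silent in every library cannot enter the test, so the 37 are not the whole list. Under LKB1 siRNA none passed without a lane term, and 3 in each line had an unadjusted p under 0.05. In the lane-term fit 4 rose and 0 fell in T98 (10.8%, against 15.8% of all genes), and 6 rose and 1 fell in U87 (18.9%, against 11.2%). Their median difference was 0.47 in T98 and 0.24 in U87, against 0.02 and −0.00 over all tested genes. The T98 calls were all lost without the T98 control or LKB1 siRNA library of lane 2 or any 1 of the U87 libraries, and numbered 9 without the T98 control or LKB1 siRNA library of lane 4. The U87 calls were all lost without any 1 of the U87 libraries.

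MSX1, a homeobox gene, rose in both lines with a lane term. It was at 508.4 and 395.8 in T98 controls and at 997.1 and 760.5 with LKB1 siRNA, and at 160.4 and 103.0 in U87 controls and 386.5 and 235.3 with LKB1 siRNA. The rise was 0.96 in T98 (SE 0.16, limma-trend adjusted p = 0.0125) and 1.22 in U87 (SE 0.16, adjusted p = 0.00442). In T98, the homeobox genes DLX1 (0.94, SE 0.16, limma-trend adjusted p = 0.0128) and MEIS2 (0.82, SE 0.15, adjusted p = 0.016) rose as well. On lanes 2 and 5 of U87, MEIS2 was higher by 0.55 and 0.61 and DLX1 by 0.04 and 0.25.

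In U87, the T-box gene TBX2 rose by 1.22 (SE 0.20, limma-trend adjusted p = 0.0105) and the forkhead gene FOXC1 by 0.78 (SE 0.18, adjusted p = 0.0325), while the LIM homeobox gene LHX2 fell by 1.82 (SE 0.31, adjusted p = 0.0117) from 20.2 and 50.7 to 3.2 and 19.8. On lanes 2 and 4 of T98, FOXC1 was higher as well (0.51 and 0.41), while LHX2 was higher there too (0.89 and 0.75), opposite to U87. TBX2 was the one listed regulator whose effect differed between the lines with a lane term, at −1.91 (SE 0.28, limma-trend adjusted p = 0.0456). It was at 285.9 and 932.5 in T98 controls and 136.2 and 747.0 with LKB1 siRNA, against 361.1 and 355.1 in U87 controls and 856.3 and 810.7 with LKB1 siRNA. TBX2 did not pass without a lane term. With one, no listed regulator passed this test without the lane 2 library of either T98 group or any 1 of the U87 libraries.

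Between the control groups, genes that reached the filter in 1 line alone were favoured to differ, so they are set apart. Of all such genes, 56.2% differed without a lane term where T98 alone carried them and 60.7% where U87 alone did. Of the 37, 11 passed the filter through T98 alone and 2 through U87 alone, and 1 through a single library of each line. Of the 23 that passed it in both lines, 13 differed without a lane term (56.5%), 8 higher and 5 lower in T98. Over all genes that passed in both lines, 34.7% differed. The genes carried by T98 alone are given by their values. GATA4, a factor of heart and endoderm development, was at 387.0 and 440.5 in T98 controls and at 2.1 and 4.8 in U87 controls. MSX2, a homeobox gene, was at 319.8 and 339.9 in T98 controls and at 5.2 and 1.9 in U87 controls. EN2, an engrailed homeobox gene, was at 142.8 and 126.2 in T98 controls and is listed at 0 in both U87 controls. These 3 were thus near 0 in U87 and above 100 in T98.

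Among genes that passed the filter in both lines, those lower in T98 included the T-box gene TBX15 (−2.30, SE 0.30, limma-trend adjusted p = 0.00115), GATA6 (−1.41, SE 0.26, adjusted p = 0.00561) and the eye and brain regulator PAX6 (−2.44, SE 0.46, adjusted p = 0.00584). GATA6 was thus on the other side from its relative GATA4, at 279.2 and 201.2 in T98 controls and 612.3 and 650.1 in U87 controls. FOXF1, a forkhead gene, had the smallest adjusted p on the higher side in the lane-term fit, at 4632.7 and 5420.0 in T98 controls and 313.4 and 119.2 in U87 controls (3.84, SE 0.16, limma-trend adjusted p = 1.83e-06). IRX3, an Iroquois homeobox gene, was lower in T98 in both fits (−1.24, SE 0.17, limma-trend adjusted p = 0.00051 with a lane term). The list has no test as a whole here, and its counts stand beside the share of all genes only.

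**Figure D5:**
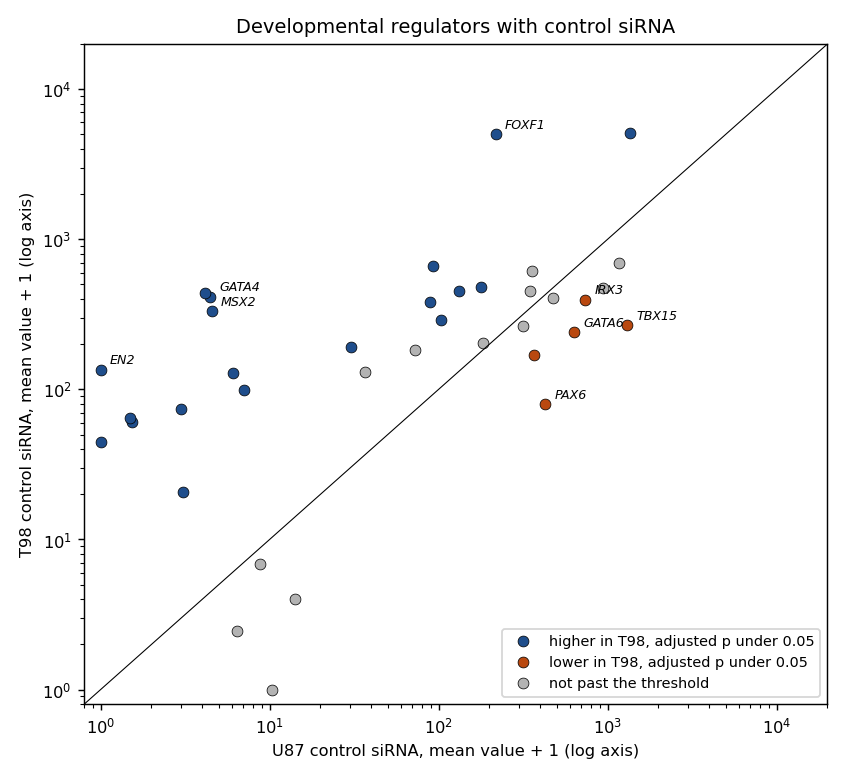
Mean value plus 1 of the 37 tested developmental regulators with control siRNA in U87 (horizontal log axis) and T98 (vertical log axis), with the line of equal values. Blue marks 19 genes higher in T98, of which 11 passed the filter through T98 alone, and orange 5 lower, at an adjusted p under 0.05 without a lane term, and grey the rest. GATA4, MSX2 and EN2 sit above 100 in T98 and below 10 in U87.

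The 5 genes with the pattern most like that of SCML2 were ranked by Pearson correlation of log2 values over the 8 libraries, among 12749 genes with a group mean of at least 50. These were the RAS gene NRAS, the centrosomal CEP44, the adhesion gene VCL (vinculin), ENC1 and the integrin-binding adaptor gene FERMT2, each at r = 0.98. The 8 libraries share lines, lanes and siRNAs, so r is a description. NRAS was at 6201.8 and 5516.8 in T98 controls and at 2125.9 and 3590.9 with LKB1 siRNA, and at 10674.6 and 8779.7 in U87 controls and 3921.1 and 4320.7 with LKB1 siRNA. VCL was at 18747.1 and 14087.8 in T98 controls and at 1563.0 and 4008.1 with LKB1 siRNA. Like SCML2, both kept the smallest values on lane 2 of T98 with LKB1 siRNA.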

How the data were processed

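Per the submitters' processing notes, TopHat2 2.0.8b, edgeR (no version) and the build hg19/GRCh37 were used on these unstranded TruSeq RNA V2 libraries. The authors deposited 1 normalised signal value per RefSeq transcript and library (18815 rows, 18787 symbols). The read counter and annotation are not stated there. Where a symbol had several rows, the one with the highest mean was kept. Depth in reads was not recovered here, so no counting intervals are given.

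Values were tested as log2(value + 1) with limma-trend (limma 3.58.1, R 4.3.3): 4 group means, 8 libraries, 4 residual degrees of freedom, two-sided, Benjamini-Hochberg over 14282 genes. Standard errors are from this fit unless a lane term is named. The second fit has a lane term within each line and 2 residual degrees of freedom. Lanes come from the file headers, per which libraries of 1 line pair by lane: the gene-wise lane differences of the control and LKB1 groups correlated at 0.72 (T98) and 0.81 (U87), against 0.12 to 0.18 across lines.

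Apart from the members, the genes named in the 2 lists were, per comparison and fit, up to 3 risen and 3 fallen genes with the smallest adjusted p, or, where none passed, the 2 largest folds each way. Members, lists and fits were chosen with earlier results of these data known. The procedure was tested on simulated data that had no lane effect, so that test does not show how either fit handles the lanes here. Alternatives are given in the closing section.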

Additional observations from a re-analysis of the deposited data

Results flagged for a closer look

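For 5 Polycomb genes every T98 lane pair differed in one direction under LKB1 siRNA and every U87 lane pair in the other, higher in T98 and lower in U87. The difference of the effects, T98 minus U87 on the log2(value + 1) scale, was 1.433 for CBX2 and 0.3003 for EED among the members. Among the other Polycomb genes it was 0.581 for the PRC1 corepressor BCOR, 0.5455 for the H3K27 demethylase KDM6B and 0.3505 for the RING partner PCGF6. The 5 genes were picked by this pattern in the same values, so no p-value is given for the difference, and none of them passed the threshold in either fit. Of all tested genes, 6.46% showed this pattern.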

How the results depend on the processing

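The planned count tests were not run, because a check of the steps between low values did not return whole reads in every column. No difference that passed without a lane term changed direction under the alternatives computed for it. The EZH2 differences, which did not pass, changed sign without the T98 control library of lane 2, from −0.34 to 0.16 in T98 and from 0.42 to −0.08 between the controls. In T98, the genes past the threshold numbered 4, and 13 with no filter, 0 with only the line's 4 libraries, 0 to 2 with a library left out, 2258 with a lane term (replicate block) and 2229 with a lane term and TMM rescaling. In U87 they numbered 8, and 0 with TMM rescaling, 30 with no filter, 0 with only the line's 4 libraries, 0 with any library left out, and 1599 and 1586 with the lane term alone and with TMM. For the controls they numbered 5386, and 3158 to 5368 with a library left out, 9037 with the lane term and 9053 with the lane term and TMM. For the difference of effects they numbered 0, and 23 with no filter, 68 with the lane term and 67 with the lane term and TMM.

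Members past the threshold went from 0 to 1 in T98 and from 0 to 3 in U87 with the lane term, the same with TMM, and other Polycomb genes from 0 to 5 and from 0 to 8. Between controls, 5 members became 3 with no filter and 3 to 5 with a library left out. The other Polycomb genes went from 13 to 20 with the lane term, and to 3 to 13 with a library left out.

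With the lane term and 1 library left out, 1 residual degree of freedom is left, in the other line. The counts then ran from 0 to 3892 genes, 0 to 5 members and 0 to 11 other Polycomb genes in T98. They ran from 0 to 2818, 0 to 5 and 0 to 11 in U87, from 3554 to 9629, 3 to 8 and 8 to 22 for the controls, and from 0 to 994, 0 to 1 and 0 to 2 for the difference. TMM factors lay between 0.987 and 1.011 of the deposited scale. The lane term and the left-out libraries were chosen after earlier results were known, and the cause of these shifts was not tested beyond the smaller spread the lane term leaves.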
